A study of Sus scrofa with 63 samples.

Results

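The genes described are the Toll-like receptors of the porcine fetal jejunum, TLR1 to TLR10. Their members were every probe of the one-colour Agilent array whose gene name in the scanner files was one of the 10 receptors, in any letter case. This gave 19 probes for 10 genes, of 60305 probes on the array and 10721 gene names that matched a RefSeq symbol. Testing was limited to probes that the scanner software called well above background in 75% or more of the fetuses of some group. By that filter 14 of the 19 probes and 8 of the 10 genes were kept, and 40515 of the 60305 probes in all.

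Total RNA of a middle segment of jejunum from 63 male fetuses was hybridised, 1 array per fetus. Boars of the Large White (LW) and Meishan (MS) breeds sired fetuses in sows of either breed, and genotypes with the same breed of sow could share a litter. Fetuses were taken by caesarean section at day 90 or day 110 of gestation. Purebred LW fetuses (LW sire and LW sow) numbered 9 at day 90 and 9 at day 110. Purebred MS fetuses (MS sire and MS sow) numbered 6 at day 90 and 7 at day 110. LWMS fetuses, from an LW sire and an MS sow, numbered 9 at each day. MSLW fetuses, from an MS sire and an LW sow, numbered 8 at day 90 and 6 at day 110. The labels do not give the sow of a fetus, so litter mates entered every test as separate fetuses and p-values may be too small. For the breed of the sire, which could differ within a litter, p-values may instead be too large. The jejunum is a mixed tissue, and in such bulk RNA fewer cells of a type and less RNA per cell cannot be told apart.

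Toll-like receptors are membrane proteins with an outer part built of leucine-rich repeats, which binds microbial molecules, and an inner TIR domain, which recruits adaptors such as MYD88 and TICAM1 and leads to NF-kappa-B and interferon regulatory factors. TLR1, TLR2, TLR6 and TLR10 form a subfamily at the cell surface, in which TLR2 pairs with TLR1 or TLR6 to recognise bacterial lipopeptides. TLR4 recognises lipopolysaccharide with the help of LY96 and CD14, and TLR5 recognises flagellin. TLR3 (double-stranded RNA), TLR7 and TLR8 (single-stranded RNA) and TLR9 (unmethylated CpG DNA) work in endosomes. In the gut they are known from epithelial cells, macrophages, dendritic cells and stromal cells. In the annotation of the pig (RefSeq, Sscrofa11.1) TLR10, TLR1 and TLR6 are neighbours on 1 chromosome, and TLR7 and TLR8 are neighbours on the X chromosome.

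The share of all probes well above background ran from 51.2% to 87.6% per array with a median of 66.7%. The labelled tissue was borne out by 8 tested enterocyte markers, whose summed linear signal was between 363 and 2466 in 62 of the 63 fetuses, in units of each array's 75th percentile. MS fetus 632 at day 110 stood apart with an enterocyte sum of 152, the lowest of the 63. The arrays lay on 8 slides, each with 5 to 8 of the 8 groups.

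TLR1, TLR3 and TLR4 were read above background by at least 1 probe in every fetus, whereas TLR5 and TLR8 were hardly detected. The single TLR8 probe was well above background in 1 of 63 fetuses, an LWMS fetus at day 90. The single TLR5 probe was well above background in 7 of 63 fetuses, 4 of which were LWMS fetuses at day 110. Both genes failed the filter and were not tested. Each was read by 1 probe only, so their levels in the tissue are not known from this array. For TLR2, TLR6, TLR7, TLR9 and TLR10 the representative probe, which was the brightest tested probe of the gene, was well above background in 92.1%, 100%, 79.4%, 74.6% and 68.3% of the fetuses, and the second TLR6 probe in 71.4%. 1 further TLR2 probe and 2 further TLR4 probes also failed the filter, although other probes of both genes passed it. A failed probe therefore does not show that its gene is absent.

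**Figure D1:**
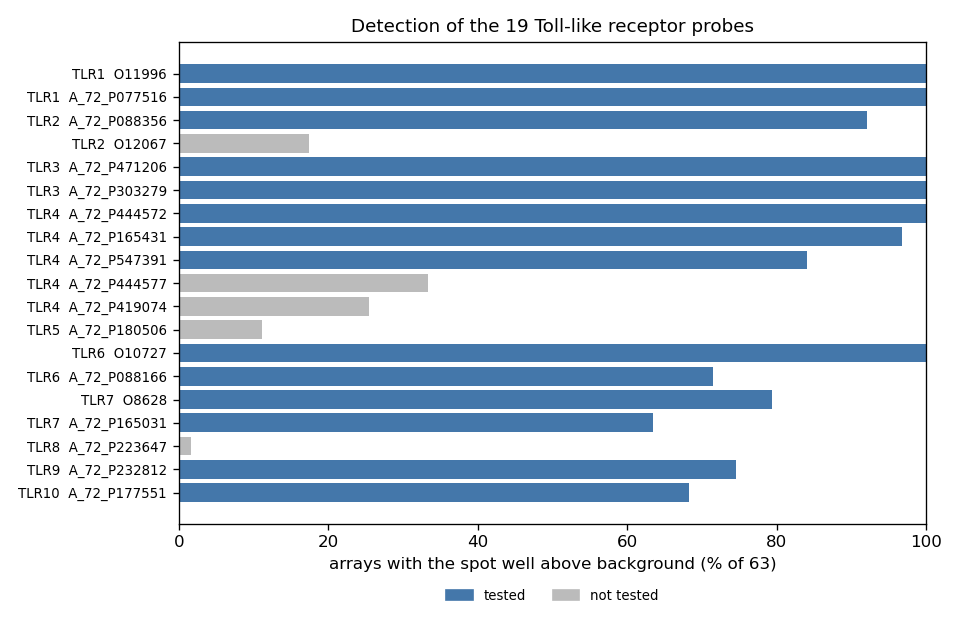
Share of the 63 arrays (x axis, percent) on which the spot of each of the 19 Toll-like receptor probes (y axis, gene and probe) was well above background, in blue for the 14 tested probes and in grey for the 5 that failed the filter. TLR5 and TLR8 have short grey bars only, at 11.1% and 1.59%.

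The TLR3 probes carry the only change with age described here, so the representative of the pair is shown, with the bases it shares with the second TLR3 probe in capitals. The shared part is 48 of 60 bases, so the 2 probes are near repeats of 1 measurement and not independent ones. Read from its first base, the probe holds no stop codon before the TAA of its last 3 bases.
TLR3 A_72_P471206: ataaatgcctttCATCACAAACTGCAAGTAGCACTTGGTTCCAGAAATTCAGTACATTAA

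The representative TLR6 probe, O10727, has to be read with a reservation. Its mean signal was higher than that of 99.1% of all probes, and its deviations from the group means did not follow those of the other TLR6 probe, A_72_P088166 (r = -0.01 over 63 fetuses). A_72_P088166 is itself a noisy measure, since its deviations and those of an unnamed probe of the same 60 bases correlated with r = 0.51 only. The last 23 bases of O10727 also occur in a probe named MUC13, and the 18 bases in capitals also in a probe named CYP24A1. Those 2 probes had the fourth and the first highest mean signal of the whole array. What part this shared run has in the signal of O10727 was not tested. The TLR6 differences in the Results are therefore given for both probes. Those listed at the end for alternatives to the processing are of O10727 alone, or of the mean of both probes where so named.
TLR6 O10727, bases 38 to 60: cctgcCCTTGCTCAGTGGGTTAA

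The array also repeats several receptor sequences, which shows how precise 1 spot is. The 2 TLR7 probes hold the same 60 bases, and over the 63 fetuses their deviations from the group means correlated with r = 0.52, with an SD of 0.69 for their log2 difference. A TLR10 probe and an unnamed probe of the same 60 bases gave r = 0.45 and an SD of 0.77. For TLR6 A_72_P088166 such a repeat gave r = 0.51 and an SD of 0.54. For TLR1 A_72_P077516, TLR4 A_72_P165431 and TLR3 A_72_P303279, unnamed probes of the same 60 bases gave r = 0.95, r = 0.97 and r = 0.93. The SD of the log2 difference was 0.09 for the TLR1 repeat, 0.25 for that of TLR4 and 0.14 for that of TLR3. For TLR7 and TLR10 the SD of the difference was near the SD between fetuses of 1 group, which was 0.60 to 0.72 for TLR7 and 0.64 for TLR10 at both days. An SD of a difference holds the noise of 2 spots, so the noise of 1 spot is smaller. Probes of 1 gene at different sites also moved together for TLR1 (r = 0.89) and among the 3 tested TLR4 probes (r = 0.90 to 0.94).

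Levels are log2 values of the background-subtracted signal after each array's own 75th percentile was set to 0, and a level of 1 probe is never set against that of another. TLR3 was higher at day 110 than at day 90 in the mean of the 4 genotypes. It was the only receptor gene for which any limma test of a difference between groups passed its threshold. In LW fetuses the TLR3 level ran from -2.26 to -1.40 with a median of -1.84 at day 90. At day 110 it ran from -1.96 to -0.41 with a median of -0.77 in LW fetuses. 7 of the 9 LW fetuses at day 110 lay above all 9 at day 90, and the other 2 lay within the day 90 range.

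In MS fetuses TLR3 ran from -2.12 to -1.73 with a median of -1.94 at day 90, and from -1.78 to -0.35 with a median of -1.33 at day 110. 5 of the 7 MS fetuses at day 110 exceeded all 6 at day 90. In MSLW fetuses the level ran from -1.94 to -1.21 (median -1.76) at day 90 and from -1.53 to -0.88 (median -1.09) at day 110. In LWMS fetuses it ran from -2.41 to -1.31 (median -1.91) at day 90 and from -2.02 to -0.77 (median -1.46) at day 110. The overlap between days was widest in LWMS fetuses, where 3 of 9 fetuses at day 110 exceeded every fetus at day 90, against 4 of 6 in MSLW fetuses.

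**Figure D2:**
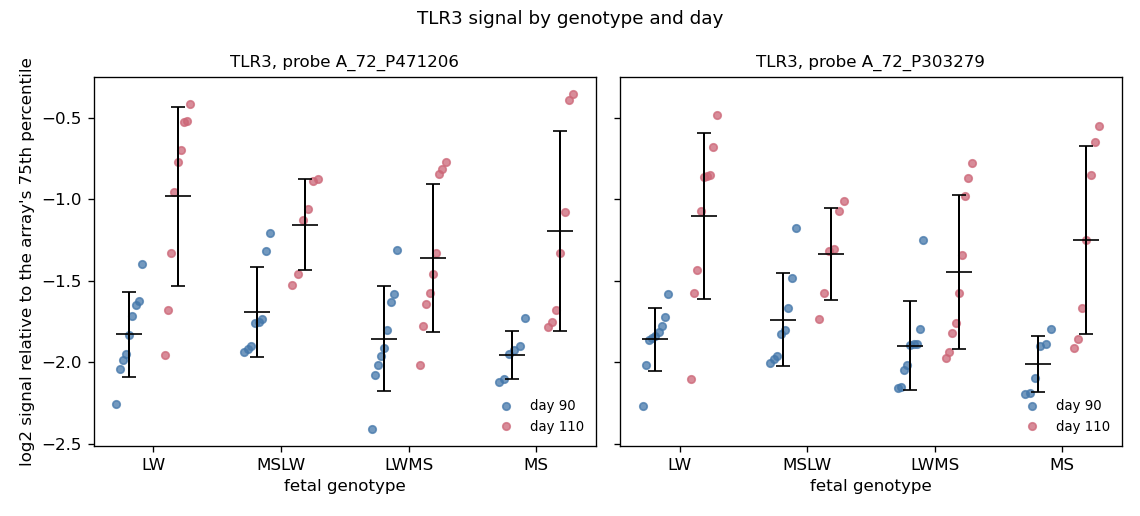
TLR3 signal of each fetus (points, log2, 0 at the array's 75th percentile) for both TLR3 probes by genotype and day, with the mean and SD of each group in black. In all 4 genotypes and with both probes the mean at day 110 lies above that at day 90, and in LW, LWMS and MS fetuses, but not in MSLW fetuses, the points at day 110 spread over a wider range.

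Averaged over the 4 genotypes, the TLR3 level was -1.83 at day 90 and -1.17 at day 110, a difference of 0.66 ± 0.10 (SE) on the log2 scale or 1.58-fold (95% interval 1.37 to 1.82, limma adjusted p = 3.7e-07). The second TLR3 probe gave 0.59 ± 0.10 (adjusted p = 1.19e-06), and the unnamed probe of the same sequence gave 0.58 (adjusted p = 2.54e-06). With limits of 0.01 on the adjusted p and 0.5 on the size of the log2 difference, 1 of 8 tested receptor genes was called, TLR3, against 13.7% of all tested probes. A rise larger than that of TLR3 was found for 4.34% of the tested probes. On the F test over the 8 groups, 2 of 14 receptor probes passed an adjusted p under 0.01, both of TLR3 (5.62e-05 and 0.000137), where 28.8% of all tested probes did.

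Taken genotype by genotype, the change passed in LW fetuses only, at 0.85 ± 0.19 (1.80-fold, adjusted p = 0.00122), where 4.77% of all tested probes were called. The differences were 0.76 ± 0.22 in MS (adjusted p = 0.0229, background 3.17%), 0.54 ± 0.21 in MSLW (adjusted p = 0.0934, background 5.41%) and 0.50 ± 0.19 in LWMS (adjusted p = 0.052, background 9.88%). These differences between genotypes were themselves tested as an age by genotype interaction, which TLR3 did not pass (adjusted p = 0.935). That test called 0 of 14 receptor probes, with 2 of 14 at an unadjusted p under 0.05, and 0.0938% of all tested probes.

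Ordered by mean, the 4 groups at day 110 (LW, MSLW, MS, LWMS) came first for TLR3 and the 4 at day 90 (MSLW, LW, LWMS, MS) after them. No gap between neighbours in this order exceeded the larger of the SDs of both groups, and the widest was the 0.33 between LWMS at day 110 and MSLW at day 90. Within each of the 8 slides the mean TLR3 level was higher at day 110, by 0.39 to 0.95. With any 1 of the 63 fetuses left out, the averaged difference stayed between 0.62 and 0.69 and that in LW between 0.77 and 0.97, and both passed in each of the 63 fits.

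Marker genes of cell types of the jejunum moved with age too. Where 13.7% of all tested probes were called, 3 of 8 tested enterocyte markers rose with age and 0 fell. Those that rose were FABP1, a fatty acid binding protein of villus cells (5.87-fold), ALPI, the brush-border alkaline phosphatase (5.55-fold), and LCT, lactase (2.58-fold). The median of their summed signal was 714 to 881 in the 4 groups at day 90 and 962 to 1496 in the 4 groups at day 110, with group ranges that overlapped (460 to 1220 and 152 to 2466). Of 7 smooth muscle and fibroblast markers 0 rose and 3 fell, namely ACTA2, COL1A1 and COL1A2, by 0.55, 0.81 and 0.74 on the log2 scale. The part of these shifts in the TLR3 difference was not tested.

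TLR4, the lipopolysaccharide receptor, did not pass any test of a mean difference, but its spread between fetuses was much wider at day 110. In LW fetuses TLR4 ran from -2.76 to -1.71 (median -2.42) at day 90 and from -3.38 to 0.07 (median -1.88) at day 110. In MS fetuses it ran from -2.83 to -1.83 (median -2.48) at day 90 and from -3.36 to 0.71 (median -2.52) at day 110. The fetuses at day 110 lay on both sides of the day 90 range in these genotypes.

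In LWMS fetuses TLR4 ran from -2.82 to -2.08 (median -2.37) at day 90 and from -4.12 to 0.29 (median -2.66) at day 110. In MSLW fetuses it ran from -3.50 to -1.62 (median -2.62) at day 90 and from -3.43 to -2.12 (median -3.12) at day 110. In this genotype the range at day 110 lay inside that at day 90. The pooled SD within groups was 0.36 at day 90 and 1.23 at day 110, a ratio of 3.40. The other TLR4 probes gave ratios of 3.55 and 3.07. The median ratio over all tested probes was 1.09, and only 0.597% of them had a ratio above that of TLR4, which describes the spread and is not a test.

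The averaged change of TLR4 with age was 0.26 ± 0.22 (95% interval -0.19 to 0.71, adjusted p = 0.387), with 0.35 ± 0.22 and 0.06 ± 0.27 for the other probes. An averaged rise of up to 1.63-fold or a fall to 0.88 of the day 90 signal thus remains within the interval. For TLR3 the pooled SD was 0.27 at day 90 and 0.50 at day 110, and for TLR2 it was 0.47 and 1.05. For the other 5 tested receptors the ratio was between 0.83 and 1.30 with the representative probes, and it was 0.69 with TLR6 A_72_P088166.

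**Figure D3:**
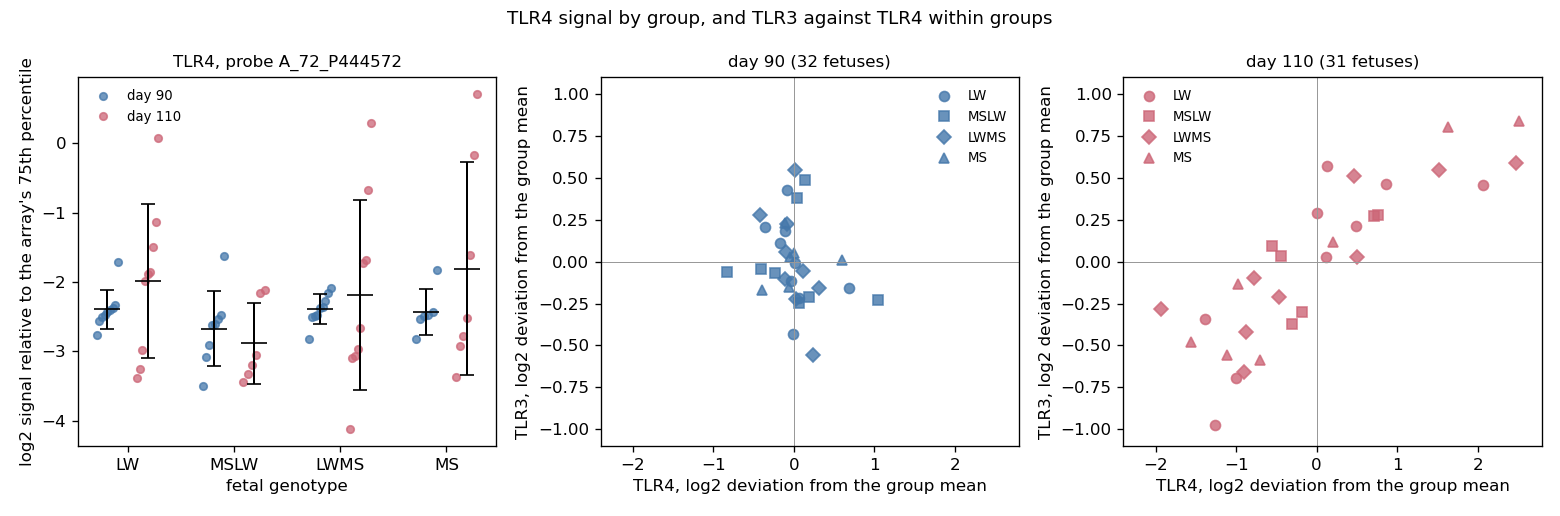
Left, TLR4 signal of each fetus by genotype and day (log2, 0 at the array's 75th percentile) with the mean and SD of each group in black. Middle and right, deviation of TLR3 from its group mean (y axis, log2) against that of TLR4 (x axis, log2) at day 90 and day 110, 1 point per fetus with the shape giving the genotype: the points form no line at day 90 and a rising one at day 110.

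Among fetuses of 1 group, TLR3 and TLR4 varied together. Over the 28 pairs of the 8 tested receptors, the correlation of deviations from the group means passed an adjusted permutation p under 0.05 in 2 pairs by Pearson's r. For TLR3 and TLR4 over 63 fetuses r was 0.68 and Spearman's rho 0.57 (permutation p = 1e-05, the smallest that 100000 permutations can give, and 9e-05, adjusted 0.00028 and 0.00126). Without the 2 fetuses farthest from the median r was 0.62, and with the slide removed 0.72.

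By day, r was 0.85 and rho 0.86 over the 31 fetuses at day 110 (permutation p = 1e-05 for both, adjusted 0.00028) and -0.24 and -0.36 over the 32 fetuses at day 90 (permutation p = 0.214 and 0.0588, adjusted 0.577 and 0.321). The difference between the days was not itself tested. At day 110, MS fetuses 623 and 627 were highest in both genes within their group, LWMS fetus 609 was highest in both within its group, and LW fetuses 852, 854 and 670 were the lowest 3 of their group in both.

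The other pair was TLR2 and TLR4 with r = 0.46 and rho = 0.56 (permutation p = 0.00334 and 4e-05, adjusted 0.0468 and 0.00112). By r this call was lost with 4 of the 6 alternatives to the processing (normexp, the authors' matrix, slide as a block, and without LW fetuses 484 and 469), where the adjusted permutation p was 0.0516 to 0.363. By rank alone, 2 more pairs passed, TLR2 with TLR10 (rho = 0.44, adjusted permutation p = 0.00747) and TLR4 with TLR10 (rho = 0.39, adjusted 0.0302). At day 90 alone TLR2 with TLR10 was the only pair that passed (r = 0.54, rho = 0.61, adjusted permutation p = 0.0042 and 0.0028). TLR1, TLR6, TLR7 and TLR9 passed in no pair over the 63 fetuses in the main processing. With A_72_P088166 as the TLR6 probe the lowest adjusted permutation p of r in its 7 pairs was 0.245. By r, TLR3 with TLR9 did pass with normexp, quantile normalization and median centring (adjusted permutation p = 0.00865, 0.0166 and 0.0345). TLR7 with TLR9, TLR10 with TLR9 and TLR1 with TLR2 passed with normexp and quantile normalization (adjusted permutation p of 0.00028 to 0.0337). None of these pairs passed with the authors' matrix or with the slide as a block.

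The genes whose log2 signal was most like that of TLR3 over the 63 fetuses, among 8219 named genes, were EHF (r = 0.87), AGPS (r = 0.85) and MECOM (r = 0.84). For TLR4 they were EGFL8 (r = 0.89), PALMD (r = 0.88) and MANSC1 (r = 0.88), and PALMD led for the other 2 TLR4 probes (r = 0.88 and 0.82). For TLR2 they were B4GALT4 (r = 0.79), GNG2 (r = 0.69) and MAPK10 (r = 0.68). The closest genes of the dim receptors were less alike, with NFKB1 first for TLR9 (r = 0.65), CYSLTR2 for TLR10 (r = 0.63) and TNFAIP8L2 for TLR7 (r = 0.44), and ENDOD1 was first for both TLR1 probes (r = 0.61 and 0.64). For TLR6 the first was CASP10 (r = 0.95) with O10727 and S100A7 (r = 0.73) with A_72_P088166, which share no gene among their first 3. These values were picked as the highest of all named genes and are a description.

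Set against marker lists of other cell types, chosen after the data had been seen, 15 of 63 relations passed by both r and rho. These relations were not repeated under the alternatives to the processing. TLR3 went with the 7 smooth muscle and fibroblast markers (r = 0.61, rho = 0.59, adjusted permutation p = 0.00189 and 0.000945, r = 0.58 without the 2 farthest fetuses), with r = 0.20 at day 90 and 0.72 at day 110. TLR4 went with the 4 neutrophil markers (r = 0.54, rho = 0.61, adjusted permutation p = 0.00239 and 0.000945) and with the smooth muscle and fibroblast markers (r = 0.50, rho = 0.44, adjusted permutation p = 0.0191 and 0.0144), the latter with r = -0.36 at day 90 and 0.63 at day 110. TLR7, known from plasmacytoid dendritic cells and macrophages, went with the 9 macrophage markers (r = 0.37, rho = 0.44, adjusted permutation p = 0.0238 and 0.00966).

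The 5 B cell markers went with TLR1 (r = 0.52, rho = 0.50), TLR2 (r = 0.53, rho = 0.54) and TLR10 (r = 0.46, rho = 0.515), with adjusted permutation p of 0.00147 to 0.00239, and for all 3 with r of 0.46 to 0.58 at each day. TLR2 ran opposite to the 8 enterocyte markers (r = -0.67, rho = -0.39, adjusted permutation p = 0.00535 and 0.0265), with r = 0.04 at day 90 and -0.78 at day 110. Without the 2 farthest fetuses that r was -0.51. The other 7 relations that passed had r of 0.32 to 0.48 and joined TLR2 with smooth muscle and fibroblast markers, TLR3 and TLR9 with endothelial and neutrophil markers, or TLR10 with T cell and endothelial markers.

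Of TLR1, TLR2, TLR6 and TLR10, none passed a test of age in limma, with adjusted p over all their probes of 0.0904 or more in the averaged comparison. The group means of TLR1 lay between -0.83 and -0.38 on its own scale, and its averaged age difference was -0.02 ± 0.07 (95% interval -0.16 to 0.13), the narrowest interval among the receptors. The second TLR1 probe gave -0.03 ± 0.08. TLR1 in MSLW fetuses at day 110 had the lowest mean (-0.83) and in LW fetuses at day 90 the highest (-0.38). No neighbours in that order, nor in the order of any other tested receptor probe, differed by more than the larger SD.

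TLR2 group means lay between -4.24 (MSLW at day 110) and -2.84 (MS at day 90), and the averaged age difference was -0.17 ± 0.20 (adjusted p = 0.548). MS fetus 632 at day 110, the one with the lowest enterocyte sum, had a TLR2 level of 0.38 while the other 6 of its group lay between -4.14 and -2.89. Without it the difference of MS minus LW at day 110 went from 0.41 to -0.13, and neither value passed. TLR10 group means lay between -5.18 (MSLW at day 110) and -4.17 (LW at day 90), with an averaged age difference of -0.20 ± 0.16 (adjusted p = 0.356).

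TLR6 gave 0.07 ± 0.10 with O10727 (adjusted p = 0.634) and 0.31 ± 0.15 with A_72_P088166 (adjusted p = 0.0904). With the latter probe all 4 genotypes had a higher mean at day 110, by 0.20 to 0.40, while with O10727 the differences by genotype ran from -0.16 to 0.25. The 2 probes do not give 1 common TLR6 value, and a mean of both was taken only as an alternative to the processing.

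Of the endosomal receptors beside TLR3, TLR9 had group means between -4.65 (LW at day 90) and -4.13 (LW at day 110). Its change in LW was 0.51 ± 0.20 (adjusted p = 0.089) and its averaged change 0.14 ± 0.11 (adjusted p = 0.328). With the slide as a block the LW value was 0.60 and passed (adjusted p = 0.00783). TLR7 group means lay between -4.60 (LW at day 110) and -4.15 (MS at day 90), and its averaged change was -0.06 ± 0.17 with 1 probe and -0.17 ± 0.19 with the other, although both hold the same bases.

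**Figure D4:**
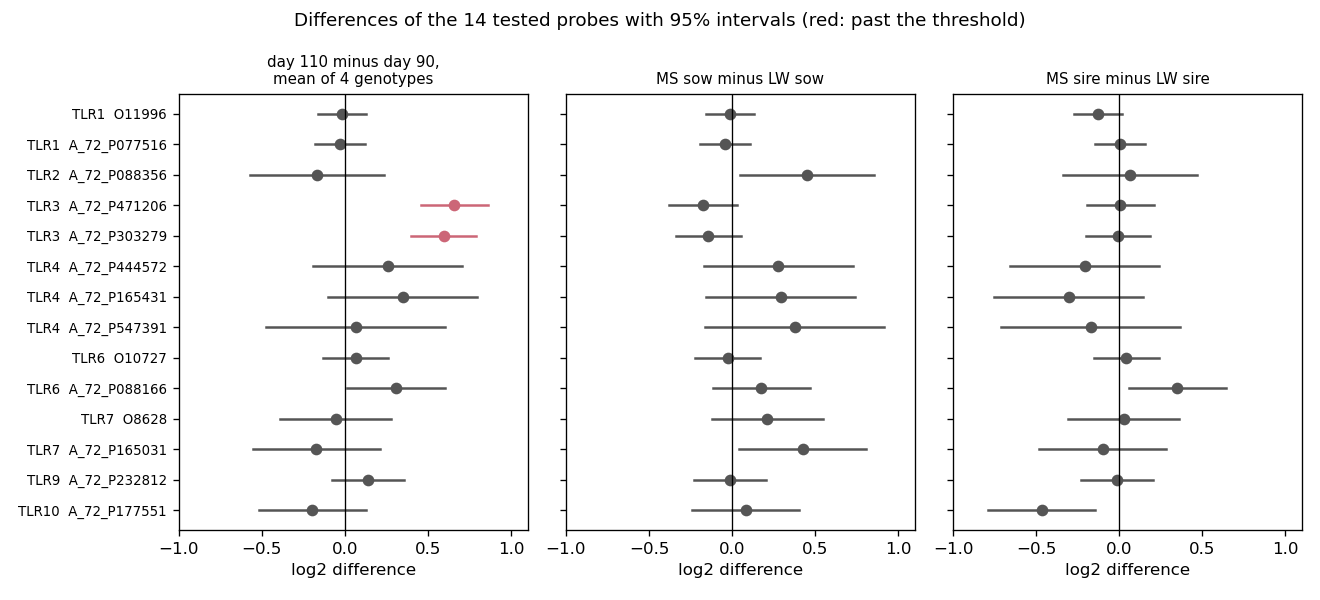
Log2 differences (x axes) of the 14 tested receptor probes (y axis) with 95% intervals, for day 110 minus day 90 averaged over 4 genotypes, MS minus LW sow and MS minus LW sire. Only the 2 TLR3 probes, at 0.66 and 0.59 in the left panel, passed their threshold (red).

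To ask whether the breed of a parent mattered, fetuses of MS sows (MS and LWMS) were set against those of LW sows (LW and MSLW), and likewise for sires. For the sow, limma called 0 of 8 receptor genes at an adjusted p under 0.05, with 2 of 14 probes at an unadjusted p under 0.05, where 15.9% of all tested probes were called. The widest difference was that of TLR2, at 0.45 ± 0.20 (1.37-fold, 95% interval 1.03 to 1.81, adjusted p = 0.12). It passed with quantile normalization (0.61, adjusted p = 0.0318) and median centring (0.56, adjusted p = 0.0375), and was 0.31 (adjusted p = 0.17) without fetus 632. Median centring also raised the median sow difference of all probes by 0.11, and with it 74.3% of the called probes were higher with MS sows, against 44.4% otherwise.

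TLR7 and TLR8 lie on the X chromosome, which a male fetus has from its sow, so for them the breed of the sow and that of their own copy cannot be told apart. TLR7 differed between MS and LW sows by 0.43 ± 0.19 with A_72_P165031 (adjusted p = 0.122) and by 0.21 ± 0.17 with O8628 (adjusted p = 0.402). TLR3 was -0.18 ± 0.10 (adjusted p = 0.239), and it passed with array weights (-0.31, adjusted p = 0.00738). Beside these values, 5 of 9 macrophage markers were higher and 0 lower in fetuses of MS sows (15.9% of all tested probes were called). With their brightest probes CD163, MSR1, C1QA, C1QB and C1QC were higher by 1.29-fold to 1.39-fold. The second probes of C1QA and C1QB gave 0.18 and 0.11 on the log2 scale and did not pass (limma adjusted p = 0.447 and 0.609). The 5 CD163 probes gave 0.31 to 0.67, with limma adjusted p of up to 0.121. The part of these markers in any receptor difference was not tested.

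For the sire, limma called 0 of 8 receptor genes, with 2 of 14 probes at an unadjusted p under 0.05 and a background of 6.97%. Of those called probes 44.5% were higher with MS sires, 35.8% with quantile normalization and 27.5% with median centring. The lowest adjusted p was that of TLR10, whose level was -4.80 in fetuses of MS sires and -4.34 in those of LW sires. The difference of -0.47 ± 0.16 had an interval of -0.79 to -0.15 (adjusted p = 0.0654). Leaving out any one of 5 fetuses (MS 871, MSLW 688, LWMS 405 and LW 854 at day 110 or MS 827 at day 90) took it past the threshold, with adjusted p of 0.0419 to 0.0441. TLR6 gave 0.35 ± 0.15 with A_72_P088166 (adjusted p = 0.157) and 0.04 ± 0.10 with O10727.

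Between purebred MS and LW fetuses limma called 0 of 8 receptor genes at day 90 (background 3.59%) and 0 of 8 at day 110 (background 5.01%), with 1 of 14 probes at an unadjusted p under 0.05 at each day. At day 90 the lowest adjusted p was that of TLR1, at -0.39 ± 0.15 (adjusted p = 0.109), and the second TLR1 probe gave -0.31 ± 0.15 (adjusted p = 0.287). At day 110 TLR6 gave 0.58 ± 0.29 with A_72_P088166 (adjusted p = 0.214) and 0.10 ± 0.19 with O10727 (adjusted p = 0.821). TLR4 gave 0.18 ± 0.44, for which the interval of -0.70 to 1.07 leaves room for a 2.09-fold difference. The fit used a common spread for all groups, while the SD of TLR4 at day 110 was 1.11 in LW and 1.53 in MS fetuses. That interval is therefore too narrow for this comparison, and larger differences are not excluded. The intervals for the dim receptors are wide, and a p that missed its threshold does not show equal levels.

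Other genes of the pathway were counted by the same rule. Of 80 listed genes of the pathway and of other pattern recognition receptors, 60 were tested, of which 6 rose and 5 fell in the averaged age comparison, with a median log2 difference of 0.07 over the 60, against -0.02 over all tested probes. By the same rule 13.7% of all tested probes were called, and the counts for each list are to be read against that share. Of 7 tested co-receptors and chaperones, LBP, the lipopolysaccharide-binding protein of plasma, rose 4.38-fold (2.13 ± 0.19, adjusted p = 6.83e-14). LY86, also called MD-1, the partner of CD180, fell by 1.05 on the log2 scale (adjusted p = 1.6e-09). LY96, which binds lipopolysaccharide on TLR4, gave 0.04 ± 0.12, and CD14 0.37 ± 0.10, under the size threshold.

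Of 5 tested adaptors none passed in age. MYD88, the adaptor of all receptors but TLR3, missed it by size alone at 0.49 ± 0.07 (adjusted p = 9.03e-08), while TICAM1, the adaptor of TLR3, gave -0.09 ± 0.09. None of 16 kinases and ubiquitin ligases passed. Of 6 inhibitors, IRAK3, which blocks IRAK kinases in macrophages, fell by 0.76 and NFKBIB, an inhibitor of NF-kappa-B, rose by 0.51. Of 7 transcription factors only FOS rose, by 0.67.

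Of 13 target genes, the neutrophil chemokines CXCL2 and CXCL8 rose by 1.42 and 0.59, while IL6, PTGS2 (the inducible cyclooxygenase) and CXCL10 fell by 1.51, 1.14 and 0.51. Of 6 other pattern recognition receptors IFIH1, a cytosolic sensor of double-stranded RNA like that recognised by TLR3, rose by 0.53 ± 0.11 (adjusted p = 0.000119). In all genes called here with age that had more than 1 tested probe, the probes moved in the same direction, but not all passed the rule. The second IRAK3 probe gave -0.35 (limma adjusted p = 0.0878), and the other IFIH1 probes gave 0.45 and 0.32. A FOS probe at 0.47 and a CXCL8 probe at 0.38 also missed it (limma adjusted p = 0.0865 and 0.0936).

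Between MS and LW at day 110, 1 of the 60 pathway genes was higher in MS fetuses and 2 were lower, which is no larger a share than the 5.01% of all tested probes. TICAM2, the adaptor that links TLR4 to TICAM1, was 1.61-fold higher in MS fetuses (0.69 ± 0.14, adjusted p = 0.000515). It was read by 1 tested probe only, and it was higher in MS fetuses at day 90 too (1.05, limma adjusted p = 6.3e-07). CCL2, a monocyte chemokine, was 2.31-fold lower, and its 3 probes gave -1.62 to -1.21. TRAF6, the ubiquitin ligase downstream of MYD88, was 2.81-fold lower with its brightest probe (-1.49 ± 0.30), but its second probe gave -0.04, so the gene as a whole is not shown to differ.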

How the data were processed

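Per the labels, Cy3-labelled cRNA of each fetus was hybridised to a one-colour Agilent array and read with Agilent Feature Extraction 10.10.1.1. The authors deposited the scanner intensity of every spot, background-subtracted by that software, and a matrix of their normalized log2 signal for 39446 probes. From the intensity, log2 was taken and the 75th percentile of each array was subtracted. Spots flagged as outliers were left out, spots of 1 probe were averaged, and 1319 control spots per array were dropped. Groups and their means were fitted with limma 3.58.1 in R 4.3.3, with Benjamini-Hochberg adjustment over 40515 probes. Thresholds were an adjusted p under 0.01 (F test), at most 0.01 with a log2 difference of at least 0.5 (age, breed) and under 0.05 (parents, interaction). Each gene was represented by its brightest tested probe. Every receptor was named, and of each pathway list the genes past a threshold in averaged age or in MS minus LW at day 110, at most the 6 of smallest p. MYD88, TICAM1, CD14, LY96 and the marker genes fall outside that rule and were named after their values were seen. Correlations used 100000 permutations within groups. The fit was tested on simulated data of 37740 probes in the averaged age comparison. It called 46 of 50 probes changed by 1 on the log2 scale and 40 of 50 changed by 0.75. The simulation held no litters and gave each probe the same spread in all groups, so it does not cover a wider spread at day 110. The sow could not be fitted as a random effect, since it is not in the labels used here. Receptors, lists and tests were chosen with earlier results of these data known. Array number and spot noise limit the precision. The files name no genome build, so no coordinates are given. Array names of probes were used as they stand. Alternatives tried were normexp background correction, quantile normalization, median centring, the authors' matrix, other filters, slide blocks, array weights, robust variance moderation, outlier spots kept, purebred fetuses alone, probe means and left-out fetuses.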

Additional observations from a re-analysis of the deposited data

Results flagged for a closer look

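In 6 of 64 groups of a receptor gene, 1 fetus lay farther from the rest of its group than Dixon's criterion allows, and chance gives this in about 1 in 20 groups. MS fetus 632 at day 110 was highest in TLR2 (0.38, next -2.89) and in TLR1 (0.37, next -0.43), and its summed enterocyte markers were the lowest of all fetuses (152). MSLW fetus 450 at day 90 was lowest in TLR10 (-7.42, next -5.06). LW fetus 484 at day 90 was highest in TLR4 (-1.71, next -2.33). LWMS fetus 954 at day 90 was highest in TLR7 (-2.41, next -4.13). LWMS fetus 405 at day 110 was lowest in TLR9 (-5.12, next -4.53).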

How the results depend on the processing

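No analysis paired by litter was possible because the labels do not give the sow of a fetus, and the groups share no fetus numbers. The averaged age change of TLR3 passed under each alternative. Its change in LW missed the threshold with median centring (0.82, adjusted p = 0.0117), which left 0 receptor genes called in LW. With slide as a block the count in LW was 2, the second being TLR9. The F test called 4 receptor probes with array weights. By the breed of the sow 1 gene passed with each of quantile normalization and median centring (TLR2) and array weights (TLR3). Of pathway genes, 7 in place of 11 were called with age with normexp and with the authors' matrix. Receptor pairs with a correlation call numbered 10 with normexp, 6 with quantile normalization, 7 with median centring, 1 with the authors' matrix and 1 without LW fetuses 484 and 469, in place of 2, and TLR3 with TLR4 passed in all of these. With single fetuses left out, chosen after seeing the data, the count of receptor genes was 1 to 1 for both age results. The causes were not tested. Median centring moved the share of higher calls from 36.8% to 51.5% (MS minus LW, day 110), 53.3% to 70.1% (age, MS) and 42.5% to 66.1% (age, LWMS). Of 887 single receptor values, 815 kept their direction and side of the threshold, 1 lost its call and 4 gained one. The other 67 changed sign, none of them called in either setting (lowest adjusted p in limma 0.284), so that no direction is given by these differences. With median centring these log2 differences became TLR1 0.026 (age averaged), TLR2 0.11 and TLR9 0.037 (age in MS), TLR7 0.016 (age in LWMS), TLR1 0.10, TLR6 0.082 and TLR9 0.10 (sow), TLR2 -0.0012, TLR3 -0.058, TLR6 -0.021 and TLR7 -0.038 (sire). With array weights they became TLR1 0.0055, TLR6 -0.034 and TLR7 0.029 (age averaged), TLR10 0.15 (age in LW), TLR6 -0.10 (age in LWMS), TLR6 0.19 (MS minus LW at day 90), TLR1 -0.020, TLR2 -0.27 and TLR4 -0.42 (MS minus LW at day 110), TLR6 0.062 and TLR9 0.00166 (sow), TLR2 -0.071 and TLR3 -0.035 (sire). With normexp they became TLR10 0.015, TLR2 0.049 and TLR7 0.020 (age averaged), TLR10 0.20 and TLR7 0.052 (age in LW), TLR2 0.13 (age in MS), TLR9 -0.013 (age in LWMS), TLR10 0.014 and TLR9 0.071 (age in MSLW), TLR10 0.043 and TLR4 0.039 (MS minus LW at day 90), TLR9 0.039 (sow), TLR9 0.034 (sire). With quantile normalization they became TLR7 0.053 (age averaged), TLR10 0.065, TLR2 0.16 and TLR9 0.20 (age in MS), TLR10 0.051 and TLR7 0.14 (age in LWMS), TLR6 -0.090 (MS minus LW at day 110), TLR1 0.032 and TLR9 0.15 (sow), TLR2 -0.023, TLR3 -0.041 and TLR7 -0.10 (sire). With the authors' matrix they became TLR10 0.0042 (age in LW), TLR2 0.18 (age in MS), TLR10 0.011 (age in LWMS), TLR9 0.023 (age in MSLW), TLR6 -0.092 (MS minus LW at day 110), TLR1 0.018 and TLR9 0.017 (sow), TLR3 -0.031 and TLR7 -0.024 (sire). With slide as a block they became TLR10 0.024 (age in LW), TLR4 -0.00443 (MS minus LW at day 110), TLR7 -0.012 (sire). Without LW fetuses 484 and 469 they became TLR10 0.054 (age in LW), TLR4 0.048 (MS minus LW at day 90). With the mean of all tested probes of a gene they became TLR6 0.12 (age in MSLW), TLR6 0.21 (MS minus LW at day 90), TLR6 0.075 (sow), TLR7 -0.036 (sire). That mean joins 2 TLR6 probes that did not move together. The other TLR6 values in this list are of O10727 alone. Precision is limited for TLR2, TLR7, TLR9, TLR10 and TLR6 A_72_P088166, whose spots were not well above background on every array. Spot noise could be read from repeated sequences for TLR7, TLR10 and TLR6 A_72_P088166, but not for TLR2 and TLR9.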
